A study of Mus musculus with 502 samples.

Results

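The 9 genes described here, Isg15, Ifit1, Ifit2, Ifit3, Irf7, Rtp4, Usp18, Oasl2 and Bst2, are classical targets of type I interferon. They were taken by symbol from the 46603 gene rows of a count table of 502 single cells, and each of the 9 had reads. Type I interferons are secreted when a cell senses foreign or misplaced nucleic acid. They bind the receptor Ifnar1/Ifnar2, whose kinases Jak1 and Tyk2 pass the signal on to a complex with Irf9 that binds the interferon-stimulated response element in front of its target genes. Resident macrophages, monocytes and neutrophils of the kidney can all carry out this response.

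The cells were live Cd45+ leukocytes sorted from kidneys of wild type CD1 mice, an outbred stock, about 3 weeks old, and sequenced with SmartSeq2, which gives full-length cDNA without molecular identifiers. Kidneys were dissociated fresh, or kept intact and unperfused in HTS-FRS solution at 4 °C for 6 h or for 1, 2, 3 or 4 days. For each timepoint the tissue dissociated came from 1 mouse by the study's methods, but no label names the animal. The cells of a timepoint within a library pool were therefore treated as 1 sample, without replicates, and values are given without a test. A difference between timepoints cannot be told apart from a difference between animals. A number in the labels, taken here as the library pool, divides the cells further into pools A, B and C. In pool A there were 75 fresh cells, 76 cells kept for 6 h, 78 kept for 2 days and 2 kept for 4 days. In pool B there were 81 fresh cells, 75 kept for 1 day, 82 for 3 days and 19 for 4 days. The 14 cells of pool C were kept for 4 days. Counts on genes per cell had a median of 695188, from 1759 to 1895431. Levels of a gene in a group are its summed reads over all summed reads on genes (CPM), scaled by 1000000, and in a single cell likewise (rpm). Intervals are exact, at the 95% level, and cover counting error only. Where 0 cells had a read, the share allowed is 3 cells of the total. A summed level cannot tell fewer cells of a type from less RNA per cell.

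By the GRCm38 annotation the 3 Ifit genes lie together on chromosome 19, with Ifit2 at chr19:34550694-34576419, Ifit3 at chr19:34583531-34588731 and Ifit1 at chr19:34640871-34650009, on the plus strand. Isg15 lies at chr4:156199424-156200818 and Irf7 at chr7:141262706-141266481, both on the minus strand. Reads were counted over exons without regard to strand. Of the 75-base runs in transcripts of Ifit3, 41.1% also occur in its neighbour copy Ifit3b, and for Ifit1 5.19% occur in Ifit1bl2, so reads of these genes may be lost or shared. Exons of Irf7 overlap Phrf1 on the opposite strand, those of Usp18 overlap Gm44148 on the opposite strand, and those of Rtp4 overlap Gm45338 on the same strand. The levels of these 5 genes are uncertain to that extent.

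RefSeq windows (GRCm38.p6) of 250 bases before the start were found for 7 of the 9 genes, and 4 of the 7 held the core of the response element, GAAANNGAAA or on the other strand TTTCNNTTTC, against 2.98% of 32851 windows of all genes. The windows of Irf7, Oasl2 and Ifit2 did not hold these letters. The 150 bases that end 31 bases before the RefSeq start are given below, 5′ to 3′ on the gene's strand with each match in capitals, for Isg15 (chr4:156200849-156200998, minus), Bst2 (chr8:71537503-71537652, minus), Ifit3 (chr19:34583349-34583498, plus) and Ifit1 (chr19:34640709-34640858, plus).
Isg15: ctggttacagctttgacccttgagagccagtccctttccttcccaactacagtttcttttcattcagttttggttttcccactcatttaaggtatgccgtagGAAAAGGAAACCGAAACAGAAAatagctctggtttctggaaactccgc
Bst2: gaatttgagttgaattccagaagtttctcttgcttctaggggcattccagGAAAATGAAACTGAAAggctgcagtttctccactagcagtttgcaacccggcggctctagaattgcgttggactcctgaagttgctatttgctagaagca
Ifit3: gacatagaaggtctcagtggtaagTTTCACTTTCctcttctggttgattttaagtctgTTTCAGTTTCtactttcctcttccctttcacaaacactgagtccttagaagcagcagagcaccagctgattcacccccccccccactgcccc
Ifit1: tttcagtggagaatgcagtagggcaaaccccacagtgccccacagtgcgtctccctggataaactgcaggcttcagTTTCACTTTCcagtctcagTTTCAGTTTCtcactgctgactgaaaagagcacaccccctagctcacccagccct
In Isg15 3 matches overlapped, beginning 78, 72 and 66 bases before the start, and in Bst2 a pair overlapped. The pairs in Ifit3 and Ifit1 lay on the other strand and apart from each other.

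Over all 502 cells, Irf7 was read in 120 cells, Rtp4 in 96, Bst2 in 80, Oasl2 in 70 and Isg15 in 68. Ifit2 and Usp18 were each read in 29 cells, Ifit3 in 27 and Ifit1 in 25. The genes thus fell into 5 read in many cells and 4 read in few. Per kilobase of annotated exon, the level was highest for Irf7 (44.3 CPM per kb), followed by Rtp4 (42.5) and Isg15 (37.2). Bst2 (25.4 CPM per kb), Ifit1 (24.6), Oasl2 (21.5), Ifit3 (21.2) and Ifit2 (19.2) lay close together, and Usp18 was lowest (7.71). The exons of Irf7 cover its whole span in the annotation, which lowers its value per kb. Exons were merged over the transcripts of a gene, and Oasl2 had the longest total, 6374 bases, which may lower its values per kb. In cells with a read, the median level per kilobase was highest for Ifit1 (219.1 rpm per kb), followed by Ifit3 (160.7) and Ifit2 (160.6), and lowest for Usp18 (97.5), Bst2 (96.1) and Oasl2 (83.8).

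The fresh cells of pool A held these genes at a higher summed level than those of pool B. Summed over the 9 genes, the level was 1924 CPM (1912 to 1936) in the fresh cells of pool A and 195.2 CPM (191.2 to 199.3) in those of pool B, a log2 ratio of 3.30 (3.27 to 3.33). In single cells the summed level had a median of 937 rpm in the fresh cells of pool A, with a highest value of 11270 rpm, and a median of 0 rpm in those of pool B, with a highest value of 1766 rpm. The ranges overlapped, since cells without a read of the 9 genes occurred in both pools, 6 of 75 in pool A (69 had a read) and most of pool B (33 of 81 had one). After thinning each cell to 200000 counts, which leaves out shallower cells, 43 of 71 fresh cells of pool A had reads of at least 3 of the 9 genes, or 60.6% (48.3 to 71.97), against 1 of 80 in pool B, or 1.25% (0.0316 to 6.77). Without thinning these were 45 of 75 and 1 of 81 cells. Genes read per cell had a median of 2649 in the fresh cells of pool A and 1843 in those of pool B. Thinning evens out depth alone, and the part of this number was not tested.

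**Figure D1:**
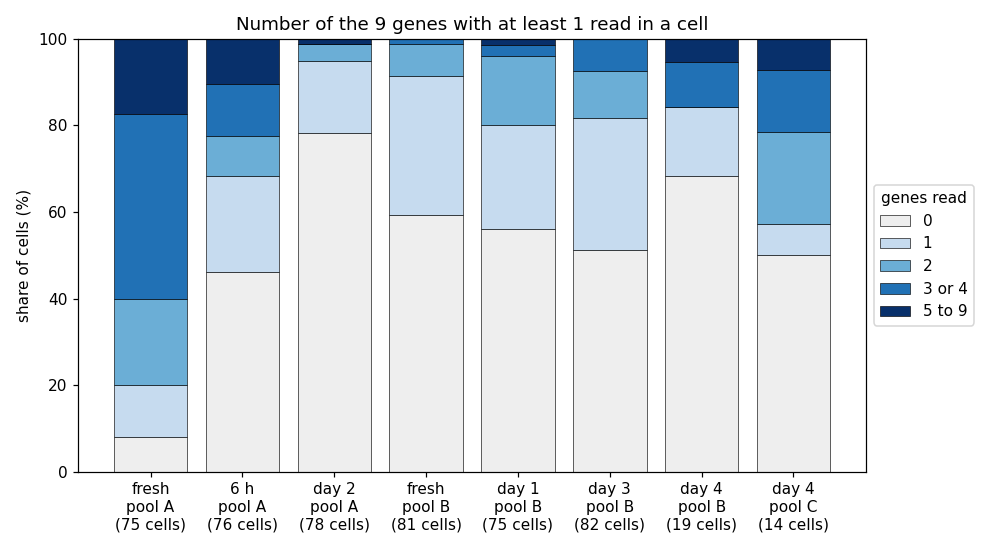
Share of cells (%) by the number of the 9 genes with at least 1 read, without thinning, for each timepoint and library pool; the 2 day 4 cells of pool A are not drawn. In the fresh cells of pool A, 60% had at least 3 of the 9, more than in any other group drawn, and at day 2 of the same pool 21.8% had any.

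Of the 9 genes, 7 were at least 2-fold higher in the fresh cells of pool A than in those of pool B and 0 were lower. Of 13000 genes with at least 50 reads in the sums together, 29.6% were higher by that much and 30.7% lower, with a median log2 ratio of -0.11. Isg15, the ubiquitin-like protein that is attached to target proteins, was read in 36 fresh cells of pool A (115.2 CPM) and 1 of pool B (0.882 CPM), a log2 ratio of 7.03 (6.58 to 7.52). Oasl2, of the oligoadenylate synthetase family that recognises double-stranded RNA, was read in 35 and 2 cells, with a log2 ratio of 6.76 (6.57 to 6.95). In pool B 93.2% of its reads came from 1 cell, and without the leading cells the ratio was 10.37. Irf7, the transcription factor that amplifies interferon production, was read in 49 and 10 cells, at 656 and 67.03 CPM, with a log2 ratio of 3.29 (3.24 to 3.35).

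For Bst2, the membrane protein tetherin that holds budding virus, the log2 ratio was 2.90 (2.73 to 3.08), or 3.78 without the leading cells, and for Rtp4, an interferon-induced protein with antiviral activity, 2.28 (2.22 to 2.35). Ifit1 and Ifit3, which bind viral RNA or act with such binders, had 7662 and 3495 reads in pool A and only 6 and 2 reads in pool B. With so few reads their log2 ratios, 10.16 (9.04 to 11.61) and 10.61 (8.76 to 13.66), are coarse. Ifit2, of the same family, and Usp18, the protease that removes Isg15 and damps the receptor, were at similar levels in the fresh cells of both pools, with log2 ratios of 0.04 (-0.05 to 0.14) and -0.04 (-0.16 to 0.07). Of the Ifit2 reads of pool A, 78.4% came from 1 cell, and without the leading cell of each pool its log2 ratio was -1.05.

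**Figure D2:**
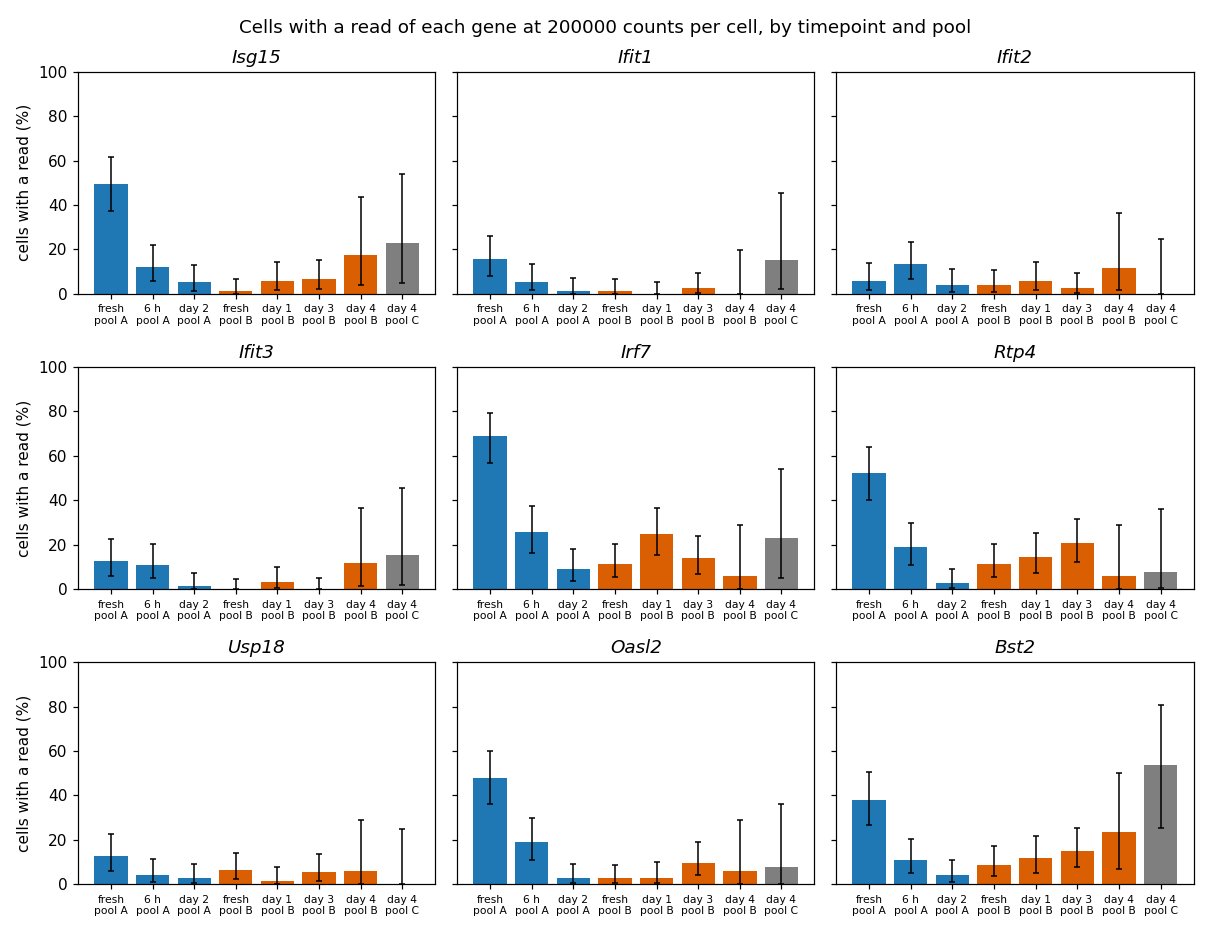
Share of cells (%) with at least 1 read of each of the 9 genes after thinning to 200000 counts per cell, by timepoint and library pool (blue A, orange B, grey C); bars start at 0 and lines are exact 95% intervals. Irf7 (69.01%), Rtp4 (52.1%), Isg15 (49.3%) and Oasl2 (47.9%) were read most often in the fresh cells of pool A.

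The fresh cells of the pools also differed in cell types. The markers of neutrophils summed to 7622 CPM in pool A and 1.81 CPM in pool B, where 4 of 6 were at 0, and those of monocytes and dendritic cells to 3768 and 316 CPM, with 1 of 7 at 0 in pool B. To compare like cells, cells were gated by counts of Cd3e (T cells, 21.1% of the 502 cells), Cd79a (B cells, 75 cells), C1qb (macrophages, 24.9%), S100a8 (neutrophils, 42 cells) and Csf1r without C1qb (76 cells). In the Cd3e gate Trac was read in 88.7% of cells, in the Cd79a gate Cd79b in 100%, in the C1qb gate C1qa in 98.4% and in the S100a8 gate S100a9 in 95.2%. The Csf1r gate had reads of Ccr2 in 71.1% and Plac8 in 88.2% of cells, and also of the neutrophil gene Csf3r in 52.6%. Of the other markers of monocytes and dendritic cells, Ly6c2 was read there in 48.7%, Itgax in 32.9%, Flt3 in 7.89%, Xcr1 in 6.58% and Zbtb46 in 2.63%. In the S100a8 gate 33.3% of cells had reads of the T cell gene Cd3d, while 0% had Trac. Of the other neutrophil markers, Csf3r was read in that gate in 88.1%, Cxcr2 in 78.6%, Retnlg in 57.1% and G0s2 in 52.4%. Plac8 (59.5%), Ly6c2 (42.9%) and Csf1r (35.7%) were read there too. A further 76 cells met none of the gates and 2 met several. Doublets were not called, and no gate can be taken to lack these 9 genes.

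Over all timepoints the summed level of the 9 genes was 3314 CPM in the S100a8 gate, 964 in the Csf1r gate, 548 in the C1qb gate, 170.6 in the Cd3e gate and 73.1 in the Cd79a gate. Reads of at least 3 of the 9 genes were found in 61.9%, 34.2%, 16% and 2.83% of the cells of the first 4 gates and in 0 of 75 cells of the Cd79a gate, which allows a share of up to 4%. After thinning these were 55%, 31.6%, 17.2%, 2.94% and 0%. The gates were filled unequally, and this order is not that of like samples. Of the 42 cells of the S100a8 gate 20 were fresh and 15 were 6 h cells of pool A, whereas the Cd79a gate held 0 fresh cells of pool A. At day 1 in pool B the level was 104.8 CPM in 4 cells of the S100a8 gate, 263.3 CPM in the Csf1r gate and 303.7 CPM in the C1qb gate, or 43.5, 158.5 and 255.6 CPM without the leading cell of each. Over all timepoints the level of the Cd79a gate was 37.4 CPM without its leading cell. The S100a8 cells of day 2 (1) and of pool C (2) had no read of the 9 genes. Members of the set differed in where they were highest. Oasl2 reached 1134 CPM in the S100a8 gate and 102.9 in the Csf1r gate, Ifit1 562 and 5.29 CPM, and Isg15 193.4 and 23.6 CPM. Of the Ifit1 reads in the Csf1r gate 99.3% came from 1 cell, and without it the level was 0.0406 CPM. Irf7 had the opposite order, with 304 CPM in the S100a8 gate and 568 CPM in the Csf1r gate, where 49 of 76 cells had a read. Bst2 was highest in the C1qb (41.5 CPM) and Csf1r gates (37.7 CPM), and of its 890 reads in the S100a8 gate 88.99% came from 1 cell. Siglech, a marker of plasmacytoid dendritic cells, which use Bst2 as a surface marker, was at 10 rpm or more in 8 cells, of which 5 had reads of Bst2 and 2 of Irf7.

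Within gates the difference between the fresh cells of the pools varied. In the C1qb gate, 6 of 8 fresh cells of pool A had reads of at least 3 of the 9 genes, against 1 of 8 in pool B, and the summed level was 896 and 322 CPM. In pool B 80.3% of these reads came from 1 cell, and without the leading cell of each pool the levels were 757.9 and 74.2 CPM. At 200000 counts per cell these were 6 of 7 (42.1 to 99.6%) and 1 of 8 (0.316 to 52.7%), so that the intervals overlapped. Genes read per cell in this gate had a median of 3595.5 in pool A and 2221 in pool B. Bst2 was read in 7 of 8 C1qb cells of pool A and 0 of 8 of pool B, Oasl2 in 5 and 0, and Isg15 in 4 and 0, whereas Rtp4 was read in 2 and 3. In the Cd3e gate the summed level was 170.5 CPM in 9 fresh cells of pool A and 173.6 CPM in 44 of pool B. Any of the 9 genes was read in 7 of the 9 and 20 of the 44 T cells, with medians of 21.3 and 0 rpm. At least 3 genes were read in 2 of the 9 and 0 of the 44 T cells, the latter allowing up to 6.82%. In the Csf1r gate the level was 1677 CPM in 30 cells of pool A, 18 of them with at least 3 genes, and 652 CPM in 4 cells of pool B, 0 of them with 3. In cells that met none of the gates it was 571 and 131.6 CPM, in 8 cells each, and 309.99 and 17.6 CPM without the leading cell of each. The S100a8 gate held 20 fresh cells of pool A and 0 of pool B, so the pools cannot be compared there. When only the Cd3e, Cd79a and C1qb gates were summed, the log2 ratio of pool A to pool B was 1.60. The mix of these cells differed, with 9, 0 and 8 cells in pool A and 44, 17 and 8 in pool B.

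**Figure D3:**
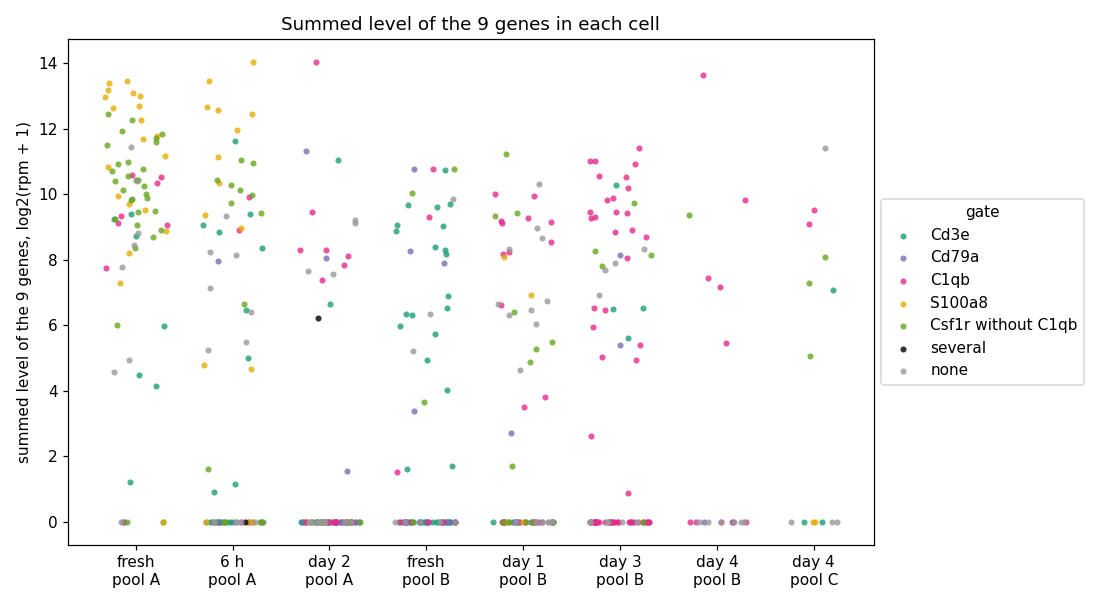
Summed level of the 9 genes in each cell, as log2(rpm + 1), by timepoint and library pool, with each point 1 cell coloured by its gate and spread sideways at random. The highest fresh cells belong to the S100a8 gate of pool A, and at day 2 and at day 4 of pool B 1 cell of the C1qb gate stands above the others, at 16902 and 12858 rpm.

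After 6 h of preservation the summed level was lower than in the fresh cells of the same pool, but not for every gene. It was 929 CPM (922 to 936), a log2 ratio of -1.05 (-1.06 to -1.04), where the median of all genes was 0.19. Of the 9 genes, 5 were at least 2-fold lower and 1 was higher, against 21.1% and 27.5% of 13395 genes. Irf7 was 109.1 CPM after 6 h (log2 ratio -2.59, -2.63 to -2.55), and was read in 22 of 76 cells. Isg15 had a log2 ratio of -2.36 (-2.44 to -2.28) and was read in 9 cells. Oasl2 (-1.48), Bst2 (-1.14) and Rtp4 (-1.04) were lower as well. Without the leading cell of each group Isg15 had -3.00 and Bst2 -2.00. Ifit2 was higher, at 190 CPM against 37.97 CPM (log2 ratio 2.32, 2.25 to 2.39), and was read in 10 of 76 cells. One cell held 56.2% of its reads after 6 h, and without the leading cell of each group the levels were 84.5 and 8.30 CPM. Ifit1 (-0.02), Ifit3 (0.36) and Usp18 (-0.25) differed by less than 2-fold. Usp18 was read in 3 cells after 6 h and 9 fresh cells, and without the leading cell of each group its log2 ratio was -1.001, past 2-fold. Ifit1 was read in 6 and 11 cells, at 80.1 and 120.5 CPM without the leading cells. The share of cells with at least 3 of the 9 genes was 18.9% (10.7 to 29.7, 14 of 74 cells) after thinning, and 17 of 76 cells without it. Genes read per cell had a median of 2136 after 6 h and 2649 in the fresh cells.

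Within gates the difference between 6 h and fresh cells varied. In the S100a8 gate the summed level was 4394 CPM in 20 fresh cells and 3868 CPM in 15 cells after 6 h, a log2 ratio of -0.18, with medians of 3409 and 1300 rpm per cell. One cell held 35.7% of the reads after 6 h. At least 3 of the 9 genes were read in 16 of 19 fresh cells (60.4 to 96.6%) and 6 of 14 cells after 6 h (17.7 to 71.1%) at 200000 counts, and in 17 of 20 and 9 of 15 without thinning. In the Csf1r gate the summed level was 1677 CPM in 30 fresh cells and 759 CPM in 15 cells after 6 h, a log2 ratio of -1.14. There the share was 17 of 30 (37.4 to 74.5%) and 6 of 15 (16.3 to 67.7%), and 18 of 30 and 6 of 15 unthinned. In the C1qb gate the summed level was 357.2 CPM in 5 cells after 6 h, against 896 CPM in the 8 fresh cells (141.6 and 757.9 CPM without the leading cell of each), and 1 of 5 and 6 of 7 thinned cells had at least 3 genes. In the Cd3e gate it was 249.1 CPM in 20 cells after 6 h and 170.5 CPM in the 9 fresh cells, and 116.9 and 110.7 CPM without the leading cell of each. When only the S100a8 and Csf1r gates were summed, with 15 and 15 cells after 6 h and 20 and 30 fresh, the log2 ratio of 6 h to fresh was -0.27. The neutrophil markers summed to 6336 CPM after 6 h and 7622 CPM in fresh cells of the pool, and those of monocytes and dendritic cells to 1635 and 3768 CPM. Their part in the lower sum was not tested.

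**Figure D4:**
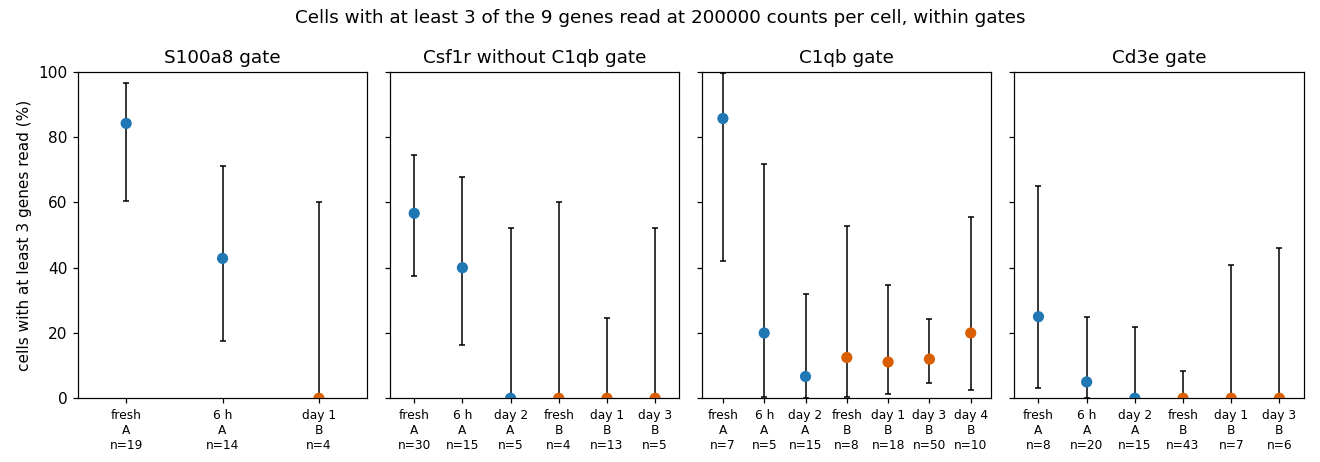
Share of cells (%) with reads of at least 3 of the 9 genes at 200000 counts per cell, within 4 gates, for groups with at least 4 such cells; points are shares (blue pool A, orange pool B), lines exact 95% intervals and n the number of cells. In the fresh cells of pool A the share was 84.2% in the S100a8 gate, 56.7% in the Csf1r gate, 85.7% in the C1qb gate and 25% in the Cd3e gate.

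At day 2 reads of the 9 genes were found in 17 of 78 cells of pool A. The summed level was 244.4 CPM (240.8 to 248.1), a log2 ratio of -2.98 (-3.00 to -2.95) to the fresh cells of the pool, and 57.2% of these reads came from a single cell. Without that cell the day 2 level was 105.4 CPM, and the log2 ratio was -4.19. The next highest were a cell of the Cd79a gate, with reads of 1 of the 9 genes at 2576 rpm, and a cell of the Cd3e gate, with reads of 2 at 2130 rpm. At least 3 genes were read in 1 of 78 cells, 1.30% of thinned cells (0.0329 to 7.02, 1 of 77). Genes read per cell had a median of 1731 at day 2 and 2649 in the fresh cells. Of the 9 genes 8 were at least 2-fold lower and 0 higher, where 26.7% of 13406 genes were lower and 31.4% higher, with a median of 0.20. Oasl2 stood at 15.7 CPM against 565 CPM (log2 ratio -5.17, -5.26 to -5.08). Rtp4 (-3.73), Isg15 (-3.29), Irf7 (-3.05), Ifit3 (-2.70), Usp18 (-2.70), Ifit1 (-2.36) and Bst2 (-1.75) were lower too. The cell leading in each gene held 99.95% of the day 2 reads for Ifit1, 99.9% for Ifit3, 90.8% for Usp18 and 78.4% for Rtp4. Without the leading cell of each group, Ifit1 and Ifit3 were at 0.0146 CPM (1 read each), against 120.5 and 38.1 CPM in fresh cells. Usp18 was at 0.368 CPM and Rtp4 at 4.16 CPM, against 17.7 and 216.5 CPM. For Oasl2, Bst2 and Irf7 the leading cell held 60.8%, 51.7% and 46.6% of the day 2 reads. Without the leading cells these were at 6.26, 7.22 and 42.6 CPM, against 475.7, 45.3 and 587.6 CPM in fresh cells. Ifit2, at 59.6 CPM, was not lower (0.65, 0.57 to 0.73), and had 1.88 without the leading cells. It was read in 3 of 78 day 2 cells and 5 of 75 fresh cells. Of its 4113 day 2 reads 1999 were in the cell of the Cd79a gate named above, so the 1.88 rests mainly on that cell. The day 2 cells held 1 cell of the S100a8 gate and 5 of the Csf1r gate, the latter without a read of the 9 genes. In the Cd3e, Cd79a and C1qb gates summed, the log2 ratio of day 2 to fresh was -0.99, and -2.41 without the cell described next. These gates held 16, 29 and 15 cells at day 2 and 9, 0 and 8 in the fresh cells of the pool. The neutrophil markers summed to 283 CPM at day 2 and 7622 CPM in those fresh cells. The markers of monocytes and dendritic cells summed to 537 and 3768 CPM, and those of B cells to 17296 and 5252 CPM. Their part in the lower sum was not tested.

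The single day 2 cell had reads of all 9 genes, the only such cell among the 502. It belonged to the C1qb gate and had 571405 counts and 1834 genes. Its summed level was 16902 rpm, with Irf7 at 4466 rpm, Ifit1 at 3575, Ifit2 at 3530, Rtp4 at 1810, Ifit3 at 1286, Bst2 at 926, Oasl2 at 746, Isg15 at 520 and Usp18 at 43.8 rpm. The cell also had reads of 39 of 44 other interferon-induced genes. Among them, and named after their values were seen, Mx1, which blocks viral replication, stood at 8827 rpm and the chemokine Cxcl10 at 6241 rpm. The other 14 day 2 cells of the C1qb gate had reads of at most 1 of the 9.

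In pool B the level was low in fresh cells and differed less between timepoints. At day 1 it was 159.6 CPM (155.6 to 163.6), a log2 ratio of -0.29 (-0.34 to -0.24). As a difference of mean log2(rpm + 1) over cells it was 0.25, the opposite direction. The T cell markers summed to 732 CPM at day 1 and 3374 CPM in the fresh cells, those of neutrophils to 2156 and 1.81 CPM and those of macrophages to 4104 and 2206 CPM, and the Cd3e gate held 9.33% and 54.3% of the cells. Their part was not tested. Of 8 genes with enough reads 2 were at least 2-fold higher and 2 lower, against 27.9% and 26.5% of 12580 genes. Isg15 had 393 reads against 40 (log2 ratio 3.50, 3.03 to 4.01), read in 6 of 75 cells, and Ifit3 had 473 reads in 2 cells against 2 reads in 1 fresh cell (8.09, 6.23 to 11.14). Usp18 (-4.04, -4.43 to -3.67) and Rtp4 (-1.47, -1.59 to -1.35) were lower in the sums. Rtp4 was read in 11 cells of each group, and on mean logs it had 0.086. Usp18 was read in 2 and 5 cells. Of its 63 day 1 reads 98.4% came from 1 cell, and without the leading cell of each group it stood at 0.026 and 13.5 CPM. At least 3 genes were read in 2.90% of thinned cells (0.353 to 10.1; 2 of 69), and 3 of 75 unthinned.

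At day 3 the summed level was 345 CPM (339 to 350), a log2 ratio of 0.82 (0.78 to 0.86) to the fresh cells of pool B. Against the fresh cells of both pools together it was -1.68, the opposite direction. Of 8 genes 5 were at least 2-fold higher and 0 lower, against 27.4% and 29.2% of 12447 genes. These were Ifit1 (7.68, 6.55 to 9.13, from 6 reads in the fresh cells), Isg15 (4.14, 3.68 to 4.63), Oasl2 (3.34, 3.14 to 3.53), Bst2 (1.44, 1.25 to 1.64) and Rtp4 (1.12, 1.05 to 1.19). Ifit1 was read in 2 of 82 cells, so its level there rests on few cells. Of the Oasl2 reads 69.1% came from 1 cell, and without the leading cells its log2 ratio was 5.54. On mean logs 0 of the 9 genes were past 2-fold at day 3, where 3.2% of genes were higher and 7.85% lower. The share of cells with at least 3 genes was 8.22% (3.08 to 17.04; 6 of 73) after thinning and 6 of 82 without, and the 6 cells belonged to the C1qb gate. That gate held 55 of the 82 day 3 cells and 8 of the 81 fresh cells. Within it the share was 6 of 50 cells at day 3 (4.53 to 24.3%), 2 of 18 at day 1 (1.38 to 34.7%) and 1 of 8 in fresh cells at 200000 counts, and the summed level 418, 304 and 322 CPM. Without the leading cell of each these levels were 330.1, 255.6 and 74.2 CPM. The macrophage markers summed to 10151 CPM at day 3 and 2206 CPM in the fresh cells, and their part in the higher sum was not tested.

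The level at day 4 rested on single cells. In the 19 cells of pool B it was 857 CPM (837 to 877), a log2 ratio of 2.13 (2.09 to 2.18) to fresh cells where the median of all genes was -2.41, and 91.6% of the reads came from 1 cell. Without the leading cell of each group the day 4 level was 76.8 CPM and the log2 ratio was -1.13. Of 8 genes 7 were at least 2-fold higher and 1 (Rtp4) lower, against 17.5% and 61.3% of 11192 genes. The leading cell was in the C1qb gate, had reads of 6 of the 9 genes, and held Ifit2 at 5166 rpm, Irf7 at 2641, Ifit3 at 2542 and Usp18 at 2122 rpm. It held all day 4 reads of Irf7 and Usp18 in the pool, while those of Oasl2 were in 1 other cell. Without the cell leading in each gene, the log2 ratio of Ifit2 was -5.07, and Irf7, Usp18 and Oasl2 had no read, against 54.3, 13.5 and 0.358 CPM in fresh cells. Genes read per cell had a median of 1130 at day 4 and 1843 in the fresh cells. The C1qb gate held 10 of the 19 and 8 of the 81 cells, and the macrophage markers summed to 11112 and 2206 CPM. Their part was not tested. In the 14 cells of pool C, which has no fresh cells, the level was 369 CPM (359 to 378), and 1 cell held 61.9% of it. At least 3 genes were read in 3 of 19 and 3 of 14 cells, and in 2 of 17 (1.46 to 36.4%) and 3 of 13 (5.04 to 53.8%) after thinning. In the 2 day 4 cells of pool A the level was 217.7 CPM (198.3 to 238.5), all in 1 cell, against 1924 CPM in its fresh cells. Of these 2 cells 0 had reads of at least 3 genes.

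Reads of the 9 genes occurred together with those of other targets. Cells with none of the 9 (50.8% of the 502) had reads of a median of 5 of 44 other interferon-induced genes, those with 1 or 2 (33.5%) a median of 10, those with 3 or 4 (54 cells) 18, and those with 5 or more (25 cells) 21. The number of genes of any kind moved the same way, with medians of 1748, 2036.5, 2418.5 and 2808. Cell type and pool moved with it too. Of the 79 cells with at least 3 of the 9 genes 65.8% were in the S100a8 or Csf1r gates, 3.80% in the Cd3e or Cd79a gates and 56.96% were fresh cells of pool A, against 10.6%, 49.8% and 2.35% of the cells with none. The part of each was not tested. The counts per cell differed little, with medians of 675575 and 769029 in the first and last of these classes. Ifitm3, which blocks virus entry, was read in 91.1% of the 79 cells with at least 3 of the 9 and in 22.7% of cells with none. For Gbp2, a GTPase of host defence, these shares were 77.2% and 10.98%. Of the receptor and signalling genes, Ifnar2 was read in 63.3% and 23.5%, Irf9 in 48.1% and 19.6%, Ifnar1 in 45.6% and 26.7%, and Jak1 in 60.8% and 55.7%. Rsad2 and Cmpk2, 2 antiviral genes named after their values were seen, were read in 17 and 13 of the 79 cells and in 0 of the cells with none, which allows up to 1.18%. Among the 9 genes, Irf7 and Rtp4 were most often read in the same cell, in 47 cells, or 39.2% of cells with Irf7 and 48.96% of those with Rtp4. Oasl2 and Rtp4 shared 42 cells, 60% of those with Oasl2.

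Of the ligands, all but Ifng were read in few cells or in none. Ifnb1, the beta interferon that macrophages and dendritic cells make early, was read in 3 of 502 cells, each of them at day 4. One was in the Csf1r gate of pool B, with 671 reads (2386 rpm), and the others were in the C1qb gate of pool C, with 1378 (1184 rpm) and 1678 reads (1536 rpm). They had reads of 3, 2 and 3 of the 9 genes. Their summed levels of the 9 genes were 661.4, 736.3 and 539.2 rpm. These were below the highest day 4 values, 12858 rpm in pool B and 2754 rpm in pool C, but above the medians. The medians were 0 rpm in pool B and 16.2 rpm in pool C. No read was found of Ifna1, Ifna2, Ifna4, Ifna5, Ifna11, Ifna12, Ifna13, Ifne, Ifnk or Ifnl3, and 0 of 502 cells allows a share of up to 0.598%. Ifnl2 had 1 read in 1 cell. Ifng, the type II interferon of T and NK cells, which induces several of the same targets, was read in 28 cells. It stood at 220 CPM in 7 fresh cells of pool A, 52.9 CPM in 8 cells of 6 h and 18.6 CPM in 1 cell of day 2, and at 44.1 CPM in 3 fresh cells of pool B. In pool B it was 59.7 CPM at day 1, 147.6 CPM at day 3 and 0 CPM at day 4. Its level had the same order as the summed level of the 9 genes in pool A but not in pool B, and its part was not tested.

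Downstream of the ligands, of 9 receptor and signalling genes, 2 were at least 2-fold higher in the fresh cells of pool A than in those of pool B and 0 lower (median log2 ratio 0.28), where 29.6% of all genes were higher and 30.7% lower. After 6 h 1 was higher and 0 lower than in fresh cells of pool A, and at day 2 1 was higher and 2 lower, against 27.5% higher and 21.1% lower at 6 h and 31.4% and 26.7% at day 2 over all genes. Ifnar1, the receptor chain, was the gene higher at both times (log2 ratios 1.12 and 1.27), and Ifnar2 was not (-0.07 and 0.13). Ifngr1, Jak1 and Irf9 stayed within 2-fold in these 3 comparisons.

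Of 15 sensors and inducing factors, 10 were at least 2-fold higher in the fresh cells of pool A than of pool B and 0 lower, and at day 2 7 were lower and 0 higher than in fresh cells of pool A, where the shares of all genes were those just given. Myd88, the adaptor of Toll-like receptors, had log2 ratios of 2.33 and -2.10, and Irf5, which acts below it, 1.41 and 0.08. Tmem173, the DNA sensor adaptor STING, had the opposite sign, -0.73 and 0.95. Of 5 inhibitors 3 were higher between the fresh pools (29.6% of all genes) and 4 lower at day 2 (26.7% of all genes), among them Trim30a (1.48 and -2.34) and Socs3 (1.85 and -1.92). Socs1, the inhibitor of Jak kinases, stayed within 2-fold (0.84 and 0.68).

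The 44 other interferon-induced genes had, in pool A and between the fresh pools, the directions of most of the 9. Between the fresh pools 31 were at least 2-fold higher in pool A and 0 lower, with a median log2 ratio of 2.13, against 29.6% and 30.7% of all genes. After 6 h 19 were lower and 1 higher (median -0.83), against 21.1% and 27.5% of all genes with a median of 0.19. At day 2 30 were lower and 0 higher (median -1.70), against 26.7% and 31.4% with a median of 0.20. Gbp2 (log2 ratios 5.63 between fresh pools, -1.14 at 6 h and -4.25 at day 2) and Ifitm3 (4.21, -1.18 and -3.76) were past 2-fold in all 3, and Samhd1, which depletes nucleotides, had 2.70, -0.79 and -2.44. Slfn2 (0.49, -0.04 and -0.68) and Sp100 (0.16, -0.33 and 0.06) stayed within 2-fold. Both comparisons in pool A use the same fresh cells, as does the comparison of pools. In pool B 16 of 41 were higher and 7 lower at day 1, where 27.9% and 26.5% of all genes were. At day 3 12 of 40 were higher and 9 lower, against 27.4% and 29.2%. At day 4 16 of 40 were higher and 20 lower, against 17.5% and 61.3%, with a median log2 ratio of -0.996 where that of all genes was -2.41.

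**Figure D5:**
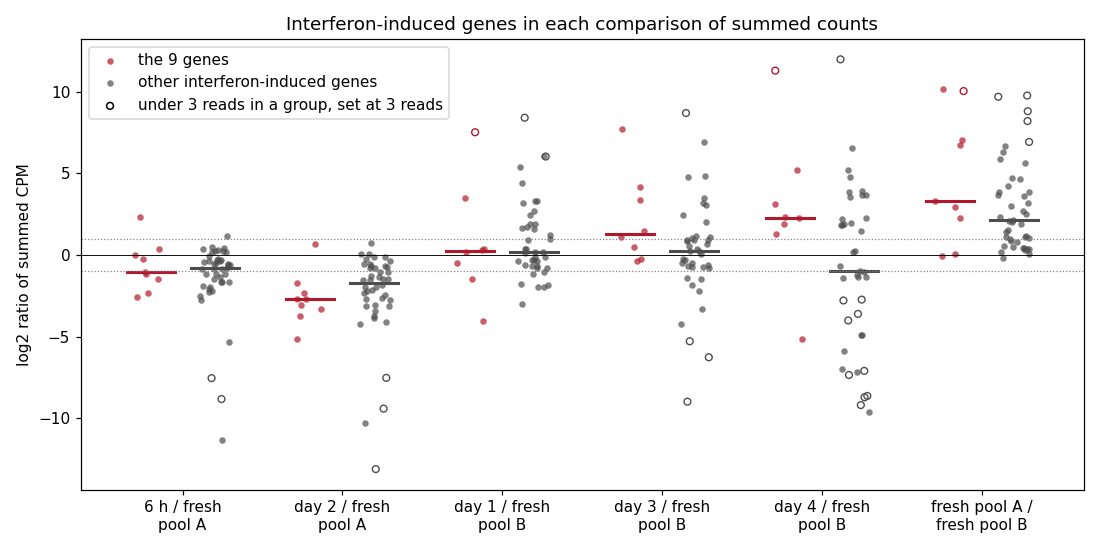
Log2 ratios of summed CPM for the 9 genes (red) and 44 other interferon-induced genes (grey) in 6 comparisons, for genes with at least 50 reads in both sums together; bars are medians, dotted lines mark 2-fold, and open points had fewer than 3 reads in a group and were set at 3 reads. The medians of the 9 genes were 3.29 between the fresh pools, -1.04 at 6 h and -2.70 at day 2.

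Across all cells, the genes most like the mean log2(rpm + 1) of the 9 were, among 6536 genes read in at least 10% of cells, Ifitm3 (Spearman's rho 0.52 over 502 cells), Gbp2 (0.51), Il18bp (0.49), Lilrb4a (0.47), Klra2 (0.47), Ifitm2 (0.46), Alox5ap (0.45), Lilr4b (0.45), Csf2rb (0.45) and Tnfrsf1a (0.44). The median gene had 0.06. The cells share libraries and differ in type, and several of the 10 are expressed in myeloid cells, so these values describe likeness in pattern only. Within the C1qb gate and within the Cd79a gate 0 of these 10 were among the leading 10. With Pearson's correlation over all cells 7 were, and within the fresh cells of pool A 3 were. Each of the 9 was also set against the mean of the other 8 over the 502 cells. Spearman's rho was highest for Oasl2 (0.47), Irf7 (0.43) and Rtp4 (0.40) and lowest for Ifit2 (0.22) and Usp18 (0.21).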

How the data were processed

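Reads were trimmed to 75 bp, freed of duplicates with picard, aligned to GRCm38 with STAR and counted with HTSeq in intersection-strict mode without strand by the authors, who left out cells with fewer than 1000 reads. No source used here gives the versions. The deposited values are raw counts of 46700 rows in 502 cells. The 96 ERCC rows (0.000185% of counts) and 1 vector row (0.139%) were removed. Within a pool 0 index pairs were shared by cells.

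Counts were summed by timepoint and pool. Log2 ratios of CPM were taken within a pool and between the fresh cells of pools A and B. Genes had at least 50 reads in both sums together, and sums under 3 reads were set to 3 for counts of genes past 2-fold. The self-test on simulated data recovered the set changes. Shares of cells used cells thinned to 200000 counts (26 shallower cells left out). Gates were at least 10 rpm for Cd3e, Cd79a and Csf1r, 100 for C1qb and 1000 for S100a8. Each gate excluded cells at these levels of the genes of the others, except that Csf1r was allowed in the other gates. S100a8 was also allowed in the Cd3e, Cd79a and C1qb gates. Python 3.11.15, scipy 1.17.1, and edgeR 4.0.16 and DESeq2 1.42.0 for scaling factors alone were used. The genes, lists, gates and named genes (the 9, gating genes, up to 6 of each list with the highest summed counts, 10 most alike) were chosen with earlier results of these data known. Alternatives covered scaling, cell weighting, leading cells, depth, gates and folds. Values of 2 genes are not reported here.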

Additional observations from a re-analysis of the deposited data

How the results depend on the processing

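No paired analysis was run. Each timepoint within a pool is 1 sample, and replicate numbers were given to cells in accession order and pair no cells. Fresh and day 4 cells occur in both pools A and B, but day 4 of pool A held only 2 cells. Limits for a move were 0.5 on the log2 scale, the interval of a share, and 1.5 times for a count. Of the values that answer a comparison, 39 moved past these limits and 3, past 2-fold in the main setting, reversed. The summed log2 ratio of the 9 genes at day 4 in pool B reversed to -0.17 as a difference of mean log2(rpm + 1), -1.13 without the leading cells and -0.37 against all fresh cells. TMM and DESeq2 factors shifted ratios by -0.17 and -0.20 (6 h), -0.21 and -0.23 (day 2), and 0.11 and 0.21 (day 4), and turned no summed ratio. Taken as differences of mean log2(rpm + 1), the summed ratios were -4.40 (6 h), -7.25 (day 2), 0.25 (day 1) and 6.11 between the fresh pools, and in the S100a8 and Csf1r gates at 6 h -2.36 and -3.91. Against all fresh cells they were -0.25 (6 h), -2.18 (day 2), -2.79 (day 1) and -1.68 (day 3). The signs of the day 3 ratio against all fresh cells and of the day 1 ratio on mean logs thus turned too, as did that of the S100a8 gate at 6 h when gated by 1 read (0.012), where the reported ratios were under 2-fold. Day 2 gave -4.09 without the leading cell of each group and -4.19 without the cell with all 9 genes (chosen after seeing the data, as were the gate subsets). Gate subsets gave -0.27 at 6 h (Csf1r and S100a8), -0.99 at day 2, -2.41 there without the cell with all 9 genes, and 1.60 between the fresh pools (Cd3e, Cd79a and C1qb). In the Cd79a gate the day 1 ratio of -7.92 rests on 4 reads and was -2.14 when gated by 1 read and -1.59 on mean logs. The share of cells with at least 3 genes was, for at least 2 genes, 84.5% in fresh cells of pool A, 7.50% in those of pool B and 18.8% at day 1, and, for at least 5, 16.9% in fresh cells of pool A, 9.46% at 6 h, 0% in fresh cells of pool B and 0% at day 3. Without the S100a8 and Csf1r gates it was 45.5% in fresh cells of pool A and 4.44% at 6 h. On mean logs 0 genes were past 2-fold higher at 6 h, day 1 and day 3 and 1 at day 4, where 1.12%, 4.78%, 3.2% and 1.97% of all genes were, and 0 lower at day 1 and day 4 (4.3% and 18.8%). At 4-fold 2 were lower at 6 h (12.8% of all genes), 1 lower at day 1 (14.99%) and 3 higher at day 3 (17.2%), and with no minimum and a prior count of 1, 1 was lower at day 3. Of the 10 most alike genes 0 were shared in the C1qb and Cd79a gates. With Pearson's correlation over all cells 7 were shared, and within the fresh cells of pool A 3. Of single genes past 2-fold, with over 3 reads left in both groups, 3 ratios reversed: on mean logs Rtp4 at day 1 (0.086) and Irf7 at day 4 (-0.38), and Ifit2 at day 4 without the leading cells (-5.07). Irf7, Usp18 and Oasl2 at day 4, with 0 reads left when the cell leading in each gene was dropped, turned too. The causes were not tested.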
